A study of Mus musculus with 16 samples.

Results

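A set of 10 imprinted protein-coding genes with ties to growth (Mest, Slc38a4, Plagl1, Peg3, Dlk1, Sgce, Peg10, Cdkn1c, Zim1 and Grb10) was followed through 16 RNA-seq libraries of mouse fetal cortex. They were taken by name, and the list was chosen with earlier results of these data known. Counts among the 10 genes set beside shares of all tested genes are therefore descriptions. The 10 genes are among the 55359 gene IDs in the files and the 21543 genes that passed the filter on low counts, and all 10 passed it. The fetuses were at gestational day 16 and came from matings in which neither parent (control), the father alone (paternal), the mother alone (maternal) or both parents (dual) had been exposed to ethanol. Each exposure was sampled in male and female fetuses, with 2 libraries for each sex, so that each exposure has 4 libraries and the series 8 groups. No source used here gives the strain, the ethanol dose or the timing of exposure. The labels do not tie the libraries to litters, so the p-values measure the spread between these samples only.

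Imprinted genes are transcribed mainly or only from the chromosome inherited from one parent, usually because DNA methylation placed in the egg or sperm marks a control region that keeps the other copy silent; at some genes histone marks do this. Many of them act on fetal and placental growth, often with paternally expressed genes promoting growth and maternally expressed genes restraining it, and several remain active in the developing brain. Among the genes here, Mest, Slc38a4, Plagl1, Peg3, Dlk1, Sgce and Peg10 are known as paternally expressed (7 genes) and Cdkn1c and Zim1 as maternally expressed (2 genes). Grb10 is expressed from the maternal copy in most tissues and from the paternal copy in neurons, and was kept as a class of its own. The counts do not separate the parental alleles, so only the summed output of each gene was measured, and in whole tissue fewer cells of a type and less RNA per cell cannot be told apart.

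The RefSeq promoter table (build GRCm38.p6) held 7 of the 10 genes, with 12 start sites. The windows of Mest and Slc38a4 are shown because the levels of these genes separated the father-exposed libraries from the controls. The stretch between the divergent starts of Peg3 and its neighbour Usp29 is shown because both transcripts, paternally expressed from one control region, varied together over the libraries. CG dinucleotides, where methylation marks are placed, are in capitals, and each sequence reads 5′ to 3′ on the strand named. Mest is the plus strand at chr6:30737800-30738049 on GRCm38.p6, the 250 bases upstream of a start. Slc38a4 is the minus strand at chr15:97055957-97056206, the 250 bases upstream of the farthest upstream of its 3 starts. Peg3-Usp29 is the plus strand at chr7:6730420-6730582, the 163 bases between the 2 starts.
Mest: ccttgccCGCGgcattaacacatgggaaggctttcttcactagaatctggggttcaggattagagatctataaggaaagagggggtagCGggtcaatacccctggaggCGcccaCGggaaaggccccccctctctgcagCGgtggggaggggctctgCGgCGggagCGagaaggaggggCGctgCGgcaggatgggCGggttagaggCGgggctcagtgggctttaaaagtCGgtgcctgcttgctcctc
Slc38a4: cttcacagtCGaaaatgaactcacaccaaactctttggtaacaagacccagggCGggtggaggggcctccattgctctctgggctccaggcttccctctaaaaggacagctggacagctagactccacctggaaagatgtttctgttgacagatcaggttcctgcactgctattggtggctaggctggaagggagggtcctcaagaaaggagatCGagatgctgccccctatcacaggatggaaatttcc
Peg3-Usp29: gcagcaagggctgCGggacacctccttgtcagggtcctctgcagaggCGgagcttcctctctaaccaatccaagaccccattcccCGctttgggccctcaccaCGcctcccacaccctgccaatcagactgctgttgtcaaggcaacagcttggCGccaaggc

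The Mest window holds 14 CG dinucleotides and that of Slc38a4 holds 3, against a median of 6 over 32851 windows of 250 bases upstream of mouse starts. Of those windows 70.6% held fewer than Mest and 29% fewer than Slc38a4. The first start of Grb10, the adaptor of insulin and IGF receptors, had 40, more than 98.7% of windows. The YY1 core CCATNTT, searched on both strands with N as any base, lay in the windows of the second Grb10 start and the third Slc38a4 start, and in 12.4% of all windows. These matches describe the letters alone; methylation was not measured.

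The libraries held 15336566 to 19966696 summed counts in males and 26134287 to 35218456 in females, and each of the 10 genes had at least 55 counts in every library. The 10 genes together took 0.0812% to 0.124% of the counts. All 7 cortical neuron markers used (Tbr1, Fezf2 and others) were detected in every library, at 3125 to 3933 summed CPM (counts scaled to a common library size), and markers of neighbouring tissue were also present. The 6 thalamic markers were all detected in every library at 136.3 to 244.1 summed CPM, the 8 choroid plexus markers summed to 9.881 to 184.6 CPM, and the 8 hypothalamic markers summed to 21.59 to 40.01 CPM with 0 to 4 of them at 0 in a library. Replicates of every group differed by more than counting noise, most of all the female controls. The 2 female dual libraries stood apart in that genes annotated as TEC (a class of provisional transcripts) or sense-intronic took 0.872% and 0.86% of their counts, against 0.325% to 0.391% in the other female and 0.28% to 0.534% in the male libraries. All comparisons with dual exposure rest partly on these 2 libraries. Genes without a symbol took 14.2% of counts in male paternal library 1 and 17.8% in male dual library 2, and 1.73% to 8.49% in the others.

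Per kilobase of exon, Mest was the most abundant of the 10 genes, with a mean of 42.05 CPM per kb over 16 libraries, above 95% of the protein-coding genes tested. Mest encodes an alpha/beta-hydrolase-fold protein. It was followed by Peg10, a gene derived from a retrotransposon and known for its role in the placenta, at 28.89 CPM per kb, and by Cdkn1c, the cell cycle inhibitor p57Kip2, at 25.17. The zinc finger gene Peg3 (21.68 CPM per kb) and Grb10 (21.07) lay close together, and Plagl1, a zinc finger transcription factor, stood at 11.56. The zinc finger gene Zim1 (3.328), the sarcoglycan gene Sgce (3.021) and Dlk1 (2.48), a transmembrane protein related to Notch ligands, formed the lower part. Slc38a4, an amino acid transporter of the system A type that is prominent in placenta and liver, was lowest at 1.321 CPM per kb, above 25.6% of protein-coding genes. Of the neighbours in this order, Peg10 and Cdkn1c, Cdkn1c and Peg3, Peg3 and Grb10, and Zim1 and Sgce differed by less than the SD of the more variable gene over the libraries.

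Across the 16 libraries the ratio of the highest to the lowest CPM was 1.46 for Sgce and 4.81 for Slc38a4, with the other 8 genes between. Replicates of the same group also varied widely for most of them. Set against tested genes of like abundance (mean log2 CPM within 0.5), the within-group SD of Plagl1, Peg10, Grb10, Zim1, Dlk1, Cdkn1c and Peg3 was higher than that of 92.1% to 98.4% of those genes. The values were 88.8% for Slc38a4 and 77.9% for Mest, and Sgce was steadier than most, at 7.97%.

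**Figure D1:**
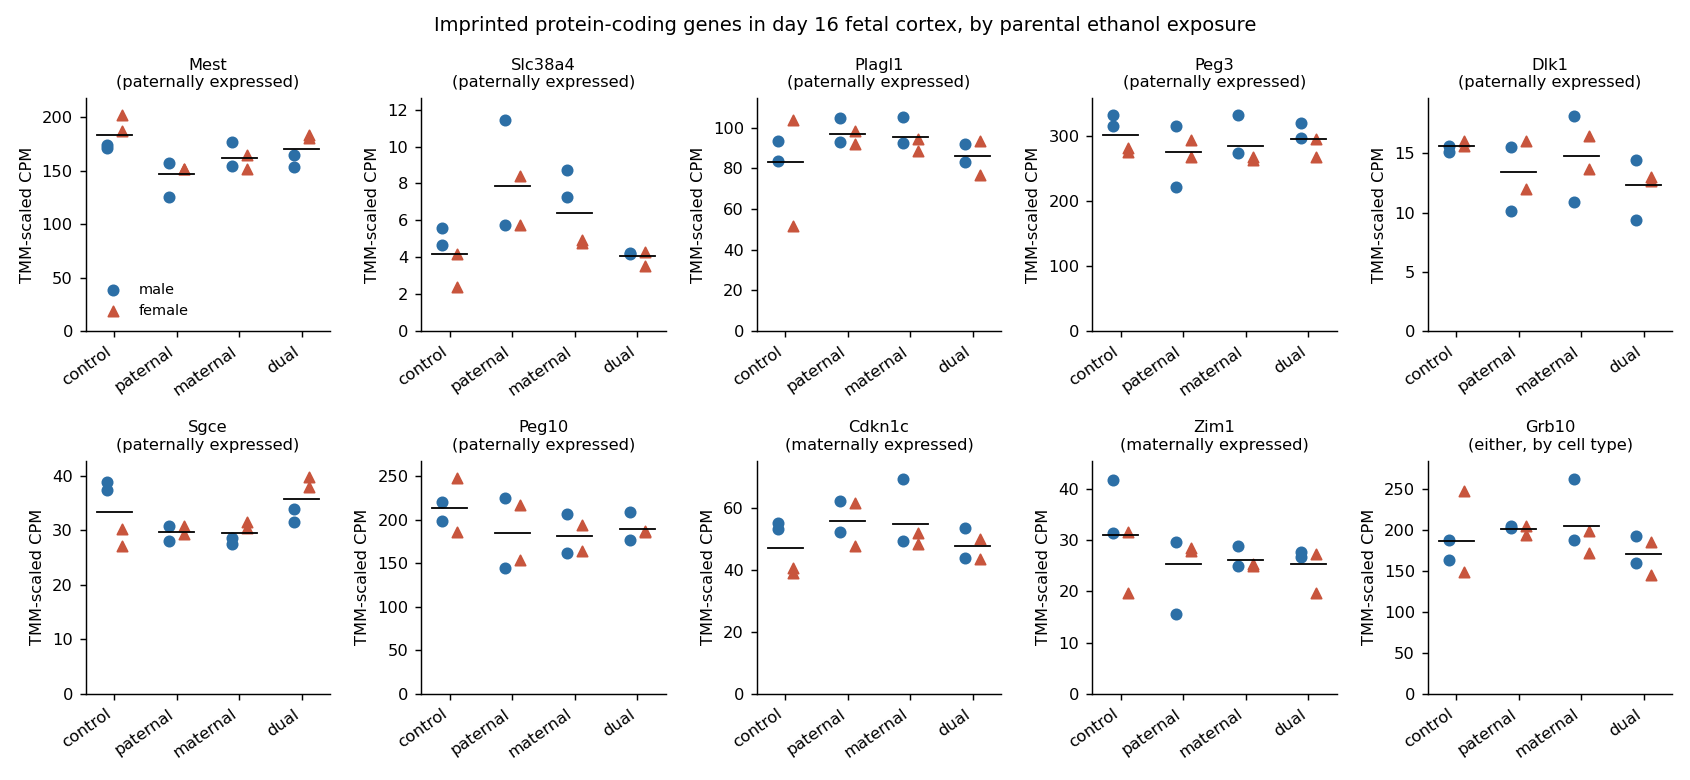
CPM (scaled by the trimmed mean of M-values, TMM) of the 10 genes in each of the 16 libraries by exposure, with circles for males, triangles for females and a bar at the mean of 4 libraries. Slc38a4 is higher and Mest lower in all 4 paternal libraries than in all 4 controls, while the other genes overlap between these groups.

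With the father exposed, Slc38a4 averaged 7.843 CPM ± 2.716 (SD, n = 4) against 4.199 ± 1.345 in controls, and Mest averaged 147 CPM ± 14.5 against 184 ± 13.9. These were the 2 of the 10 genes whose 4 paternal libraries lay wholly apart from the 4 controls, where 2.96% of all tested genes did so. By edgeR's quasi-likelihood test none of the 10 genes had an adjusted p under 0.05, nor did any tested gene (0%); 4 of the 10 genes had an unadjusted p under 0.05, as did 1821 of all tested genes. DESeq2 called 20 genes in all, of which Mest was 1 (adjusted p = 0.0157); Slc38a4 missed its threshold (adjusted p = 0.0546). With no filter on low counts edgeR called 321 genes, Mest (adjusted p = 2.99e-05) and Slc38a4 (adjusted p = 6.8e-05) among them. These adjusted values lie below the unadjusted p of the filtered edgeR fit, 0.000144 for Mest and 0.00046 for Slc38a4. Genes near 0 counts enter the estimate of spread in the unfiltered fit, so its lower values are not firmer support.

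Slc38a4 stood at 4.66 and 5.58 CPM in the male controls and at 2.38 and 4.17 in the female controls. In the paternal group it was 11.5 and 5.75 CPM in males and 8.39 and 5.77 in females. Every paternal library was above every control, though the lower 2 of them were close to the highest control. The log2 fold change was 0.92 ± 0.21 (SE), or 1.9-fold, with an adjusted p of 0.344 (edgeR). The value ran from 0.64 without male paternal library 1 to 1.15 without female control library 2. The latter passed (adjusted p = 0.00692) but set the lone female control left, at 2.38 CPM the lowest of all 16 libraries, as the female reference. A group reduced to 1 library, here and in every such fit, is assumed to vary like the other groups.

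Mest read 175 and 172 CPM in male controls and 202 and 187 in female controls. The paternal libraries read 125 and 157 CPM in males and 152 and 152 in females. The log2 fold change was -0.32 ± 0.07 (SE, adjusted p = 0.32 by edgeR). It ran from -0.249 without male paternal library 1 to -0.415 without male paternal library 2. Without female control library 1 it was -0.30, and without library 2 it was -0.35. In the GENCODE M21 annotation 912 of the 3945 exonic bases of Mest overlap Copg2, a coatomer subunit gene on the opposite strand. No source used here gives the strand setting of the counting, so reads of the 2 genes may be mixed. Copg2 had a log2 fold change of -0.24 ± 0.05 (adjusted p = 0.331).

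The other paternally expressed genes did not separate paternal from control libraries. Sgce had a log2 fold change of -0.15 ± 0.07 (SE; adjusted p = 0.567), Peg3 -0.13 ± 0.09 (0.706), Peg10 -0.20 ± 0.13 (0.702), Dlk1 -0.21 ± 0.17 (0.753) and Plagl1 0.23 ± 0.14 (0.689), all by edgeR. The Plagl1 value turned on the controls, which read 83.7 and 93.3 CPM in males but 104 and 51.7 in females. Without female control library 1 Plagl1 was called higher in the paternal (0.52, adjusted p = 0.00218), maternal (0.49, adjusted p = 0.0196) and dual group (0.35, adjusted p = 0.00805), with library 2 (51.7 CPM) as the lone female control. Leaving out male paternal library 2 or 1 moved Peg3 from -0.27 to -0.015, Peg10 from -0.38 to -0.062 and Dlk1 from -0.39 to -0.083.

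Cdkn1c, which restrains cell division, read 53.3 and 55.2 CPM in male controls and 39.1 and 40.5 in female controls. The paternal libraries read 62.2 and 52.1 CPM in males and 61.4 and 47.6 in females, and the groups overlapped. The log2 fold change was 0.26 ± 0.11 (SE; adjusted p = 0.527, edgeR). Of the Cdkn1c exonic bases, 625 of 2039 overlap the antisense gene Gm44732, so its counts too may hold reads of 2 genes. Zim1 had a log2 fold change of -0.27 ± 0.17 (adjusted p = 0.688), with male paternal library 1 lowest at 15.6 CPM, and ran from -0.55 without male paternal library 2 to -0.077 without female control library 2. Grb10 had 0.11 ± 0.13 (adjusted p = 0.855), and its 4 paternal libraries lay within 195 to 205 CPM while the controls spanned 149 to 248.

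**Figure D2:**
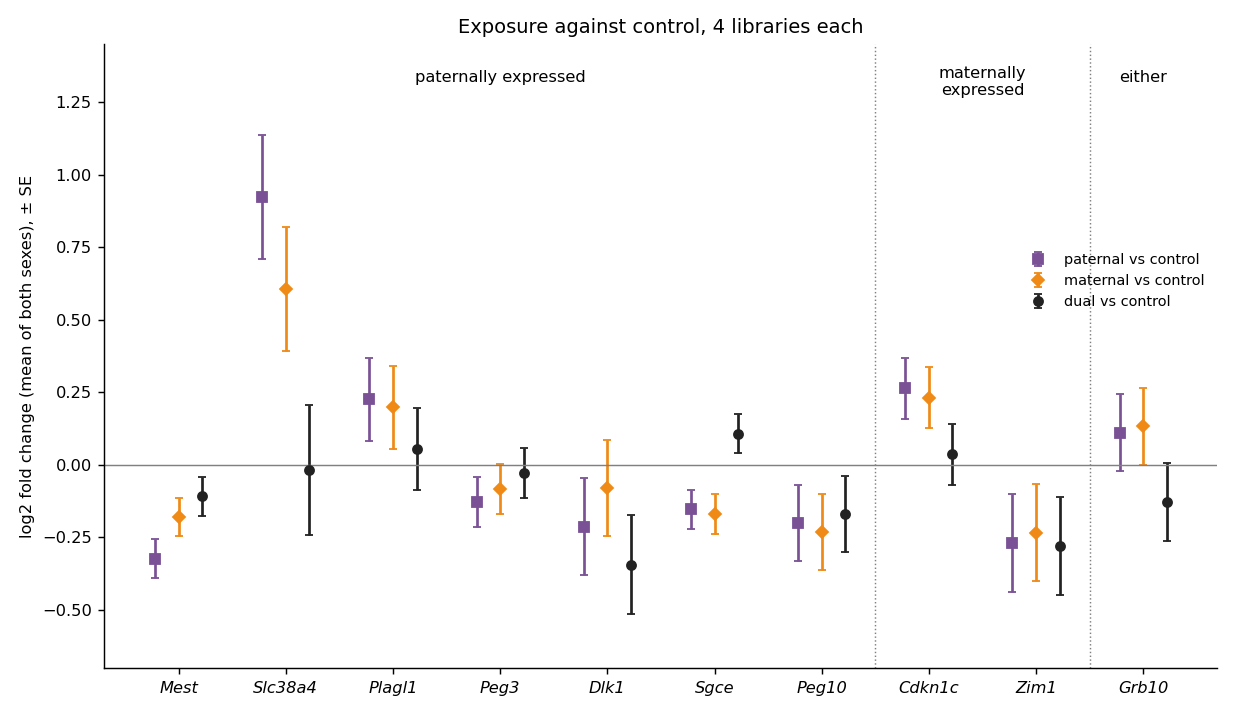
log2 fold change ± SE of each gene against control, as the mean of both sexes with 4 libraries on each side, for paternal (squares), maternal (diamonds) and dual exposure (circles). Slc38a4 has the highest values, at 0.92 for paternal and 0.61 for maternal exposure, and lies at -0.018 for dual exposure.

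With the mother exposed, all 10 genes overlapped with the controls, where 1.59% of tested genes did not. Slc38a4 averaged 6.43 CPM ± 1.90 (SD, n = 4), with 7.26 and 8.71 in males and 4.94 and 4.79 in females. Its log2 fold change was 0.61 ± 0.21 (SE; adjusted p = 0.998, edgeR). Mest averaged 162 CPM ± 11.4, with 177 and 154 in males and 165 and 152 in females, and a log2 fold change of -0.18 ± 0.07. Cdkn1c had 0.23 ± 0.11, with 69.5 and 49.2 CPM in males and 51.9 and 48.4 in females, and Sgce -0.17 ± 0.07. All 10 adjusted p-values were 0.998, and 0% of tested genes were called; 4 of the 10 genes had an unadjusted p under 0.05, as did 817 of all tested genes, and DESeq2 called 2 genes, none of the 10. With no filter on low counts edgeR called 79 genes, with Peg10 lower (-0.24, adjusted p = 0.0364), though its unadjusted p in the filtered edgeR fit was 0.0987. The paternal and maternal comparisons share the same 4 control libraries.

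When both parents were exposed, none of the 10 genes was called against control by edgeR, where 3.36% of tested genes were, and none had an unadjusted p under 0.05, where 4234 of all tested genes did. DESeq2 called none of the 10. Slc38a4 averaged 4.05 CPM ± 0.36 (SD, n = 4), with 4.16 and 4.21 in males and 3.52 and 4.31 in females, within the range of the controls. Its log2 fold change was -0.018 ± 0.22 (SE; adjusted p = 0.977), with a 95% interval of -0.49 to 0.46. Mest averaged 171 CPM ± 13.9, with 154 and 165 in males and 183 and 181 in females (log2 fold change -0.11 ± 0.07, adjusted p = 0.387). Dlk1 was the 1 gene of the 10 whose dual libraries lay wholly below the controls, where 5.19% of tested genes did not overlap. It read 9.34 and 14.4 CPM in dual males and 12.99 and 12.62 in dual females, against 15.08 to 16.04 in controls, with a log2 fold change of -0.34 ± 0.17 (adjusted p = 0.273).

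Between dual and paternal exposure, 2 of the 10 genes passed edgeR's test, Slc38a4 lower and Sgce higher in dual, where 8.81% of tested genes were called. Slc38a4 was lower by 0.94 ± 0.22 on the log2 scale (SE; adjusted p = 0.0123), with all 4 dual libraries (3.52 to 4.31 CPM) below all 4 paternal ones (5.75 to 11.5). The call was lost without male paternal library 1 (-0.66, adjusted p = 0.0936), male dual library 1 (-0.94, adjusted p = 0.061) or female paternal library 1 (-0.80, adjusted p = 0.0672). It was also lost with protein-coding genes alone (-0.89, adjusted p = 0.064), in males alone (-1.02, adjusted p = 0.483) and with the TEC and sense-intronic share as a covariate (-0.31, adjusted p = 1). The covariate fit takes its slope from small differences within groups, so it cannot separate the share from the female dual group. Grb10 also lay wholly lower in dual, at 146 to 193 CPM against 195 to 205, with a log2 fold change of -0.24 ± 0.13 (adjusted p = 0.283). With Slc38a4, Sgce and Grb10, 3 of the 10 genes did not overlap, against 13.6% of tested genes. Mest had a log2 fold change of 0.21 ± 0.07 (adjusted p = 0.0534, edgeR). The value ran from 0.136 without male paternal library 1 to 0.301 without male paternal library 2. Mest passed by DESeq2 (0.22, adjusted p = 0.0323) and by edgeR with no filter on low counts (0.21, adjusted p = 0.01).

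Sgce encodes epsilon-sarcoglycan, a membrane glycoprotein whose loss from the paternal copy underlies myoclonus dystonia in people. It read 37.3 and 38.8 CPM in male and 27.2 and 30.3 in female controls, and 27.99 and 30.83 in male and 29.2 and 30.8 in female paternal libraries. Under maternal exposure it read 27.4 and 28.5 CPM in males and 30.4 and 31.5 in females, and under dual exposure 33.8 and 31.5 in males and 39.7 and 37.9 in females. Dual libraries were therefore above all paternal and all maternal ones, though male dual library 2 exceeded female maternal library 2 by a very small margin. Dual exceeded paternal by 0.26 ± 0.07 (SE; adjusted p = 0.0245) and maternal by 0.28 ± 0.07 (adjusted p = 0.024) on the log2 scale, by edgeR.

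Leaving out single libraries ended both Sgce calls. The dual against paternal call was lost without male paternal library 1 (0.23, adjusted p = 0.133), male dual library 1 (0.23, adjusted p = 0.139) or 2 (0.25, adjusted p = 0.0684), female paternal library 1 (0.24, adjusted p = 0.112) or 2 (0.28, adjusted p = 0.0523), or female dual library 1 (0.24, adjusted p = 0.0834) or 2 (0.28, adjusted p = 0.0504), and kept without male paternal library 2; with no filter on low counts its adjusted p was 0.055. The dual against maternal call was lost without any 1 of the 8 libraries compared, with adjusted p of 0.0557 to 0.143 and log2 values of 0.25 to 0.29, and with protein-coding genes alone (0.32, adjusted p = 0.0693). In males alone the differences were 0.15 (adjusted p = 0.724) and 0.23 (adjusted p = 0.67). The TEC and sense-intronic share of counts moved with Sgce. The 4 libraries with Sgce above 37 CPM, the male controls and the female dual libraries, had shares of 0.429%, 0.534%, 0.872% and 0.86%, and of the other 12 only male dual library 1 (33.8 CPM) was as high, at 0.511%. With this share as a covariate the Sgce difference between dual and paternal was -0.028 and that between dual and maternal 0.022. Differences in the share between the 2 libraries of a group, which set the slope, were small beside the gap of the female dual libraries. The fit therefore cannot separate the share from that group, and the part of the share in the result was not tested further.

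Between dual and maternal exposure Sgce was the 1 gene of the 10 called, where 5.76% of tested genes were, and 2 of the 10 did not overlap, Sgce and Slc38a4, against 11.2% of tested genes. Slc38a4 was at 3.52 to 4.31 CPM in dual and 4.79 to 8.71 in maternal libraries, a log2 fold change of -0.62 ± 0.22 (SE; adjusted p = 0.105, edgeR). It passed without female control library 1 (-0.63, adjusted p = 0.0443) or library 2 (-0.63, adjusted p = 0.0403), although the controls enter this comparison only through the shared scaling and spread. With no filter on low counts it also passed (-0.63, adjusted p = 0.0114).

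The departure from additivity compares the dual change with the paternal and maternal changes added together, and 3 of the 10 genes passed edgeR's test, Slc38a4, Sgce and Mest, where 4.21% of tested genes did. Slc38a4 departed by -1.55 ± 0.31 on the log2 scale (SE; adjusted p = 0.00913), with paternal and maternal changes of 0.92 and 0.61 and a dual change of -0.018. That call held without any 1 of the 16 libraries, at -1.78 to -1.27. Mest departed the opposite way, by 0.39 ± 0.09 (adjusted p = 0.0244), from changes of -0.32, -0.18 and -0.11. Sgce departed by 0.43 ± 0.10 (adjusted p = 0.0176), from changes of -0.15, -0.17 and 0.11. Cdkn1c had -0.46 ± 0.15 (adjusted p = 0.0925) and passed without male maternal library 2 (-0.58, adjusted p = 0.0274) or male dual library 2 (-0.59, adjusted p = 0.0476). Grb10 had -0.37 ± 0.19 (adjusted p = 0.29) and passed without female control library 1 (-0.58, adjusted p = 0.0109). The other 5 genes had adjusted p of 0.331 to 0.932.

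The Mest call on additivity was lost when any 1 of 10 libraries was left out. These were male control 1 (0.38, adjusted p = 0.0507) and 2 (0.40, 0.0654), male paternal 1 (0.32, 0.0626), male maternal 2 (0.34, 0.0687), male dual 2 (0.32, 0.0983), female paternal 1 (0.39, 0.0665) and 2 (0.39, 0.0527), female maternal 2 (0.37, 0.0748) and female dual 1 (0.38, 0.0575) and 2 (0.40, 0.0514). The Sgce call was lost without male control 2 (0.42, adjusted p = 0.0618), male paternal 1 (0.40, 0.062), male dual 1 (0.40, 0.0696), female paternal 1 (0.40, 0.0588) or female maternal 1 (0.41, 0.0574). In males alone, from a fit without the 2 female dual libraries, Slc38a4 departed by -1.67 (adjusted p = 0.205), Sgce by 0.60 (0.174) and Mest by 0.23 (0.487), where edgeR called 0 genes (2549 had an unadjusted p under 0.05). With the TEC and sense-intronic share as a covariate, which that fit cannot separate from the female dual group, the 3 values were -0.84, 0.11 and 0.27, none called. With protein-coding genes alone Slc38a4 (-1.49, adjusted p = 0.0768), Sgce (0.48, 0.0744) and Mest (0.44, 0.0827) missed the threshold. Copg2, which overlaps Mest, departed by 0.40 ± 0.08 (adjusted p = 0.00796), close to the value of Mest.

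Like Slc38a4, markers of meninges and fibroblasts, vessels, blood and microglia were lower in dual than in paternal libraries by the median of each list. The medians were also negative for intermediate progenitor (-0.243), radial glia (-0.0942) and cortical neuron markers (-0.0819), with none called. For thalamus (0.0363), hypothalamus (0.0258) and choroid plexus markers (0.00154) they were not. Calls among the meninges, vessel, blood and microglia markers did not follow those of Slc38a4 throughout. In dual against maternal exposure Slc38a4 missed the threshold, and 5.76% of tested genes were called. There 4 of 8 endothelial and pericyte, 3 of 6 erythroid, 1 of 12 meninges and fibroblast and 0 of 8 microglia markers were called lower. In dual against control 1 of the 8 endothelial and pericyte markers was called lower, where 3.36% of tested genes were called. All 12 listed meninges and fibroblast markers, among them Col1a1, Dcn and Foxc1, were detected in every library and none was at 0. Their summed level was 487.3 to 643.6 CPM in paternal, 428.5 to 676.5 in maternal, 262.3 to 431 in dual and 112.7 to 561 in control libraries. Female control library 1, with the lowest sum (112.7 CPM), had the lowest Slc38a4 (2.38 CPM), and the 4 libraries with sums of 580.4 or more held the 4 highest Slc38a4 levels, 7.26 to 11.5 CPM. The order did not hold throughout: male control library 1, at 561 CPM of these markers, had 4.66 CPM of Slc38a4, while paternal libraries at 487.3 and 490.5 CPM had 5.75 and 5.77. For the departure from additivity all 12 markers had negative values, with a median of -1.17, and 3 of them passed, where 4.21% of tested genes did. In dual against paternal exposure, the comparison given for each list below, 8.81% of tested genes were called. Of the 12 meninges and fibroblast markers 2 were called lower there. The 8 endothelial and pericyte markers, also all detected, summed to 381.9 to 411.1 CPM in paternal, 371.2 to 419.4 in maternal, 256.4 to 341.6 in dual and 266.7 to 411.4 in control libraries, and 7 of 8 were called lower in dual than paternal libraries. Of 6 erythroid markers 3 were called lower in dual than paternal libraries, with sums of 364.7 to 517.4 CPM in dual, 470.8 to 1179 in paternal, 562.8 to 951.8 in maternal and 530.3 to 695.8 in control libraries. Male paternal library 1, highest for Slc38a4, had the lowest erythroid sum of the paternal libraries. Of 8 microglia markers 3 were called lower in dual than paternal libraries, with sums of 42.07 to 66.84 CPM in dual, 79.17 to 105.3 in paternal, 59.16 to 84.14 in maternal and 46.43 to 82.02 in control libraries. The medians for the departure from additivity were -0.641 for endothelial and pericyte, -0.791 for erythroid and -0.466 for microglia markers. They were -0.391 for intermediate progenitor markers and -0.105 each for radial glia and cortical neuron markers. For hypothalamus, thalamus and choroid plexus markers they were 0.369, 0.435 and 0.914. Against control, all 12 meninges and fibroblast markers had positive values in paternal (median 0.532) and in maternal exposure (median 0.416). Of the 6 thalamic markers 5 had negative values in paternal (median -0.464) and 6 in maternal exposure (median -0.378). None of them was called there, as no tested gene was. Thalamic sums were 147.1 to 244.1 CPM in control and 140.4 to 150.8 in paternal libraries. The part of these marker lists in the Slc38a4 and Mest results was not tested.

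**Figure D3:**
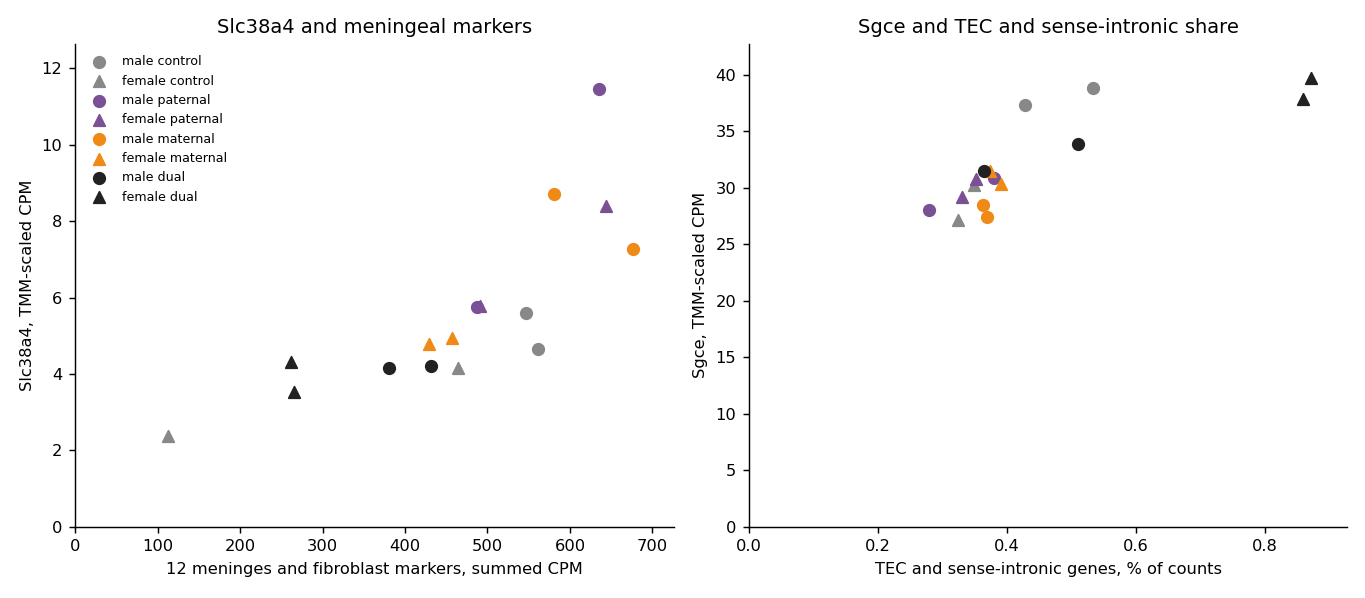
Left, Slc38a4 against the summed level of 12 meninges and fibroblast markers, and right, Sgce against the share of counts on TEC and sense-intronic genes, one point for each of the 16 libraries with axes in TMM-scaled CPM or % of counts. Slc38a4 is highest where the marker sum is 580.4 CPM or more, and Sgce is above 37 CPM in the male controls and the female dual libraries.

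The genes whose libraries followed Slc38a4 most closely, by Pearson r of log2 CPM after subtracting each sex's mean, over 16 libraries and 12247 genes, were Lgals1 (0.894), Fam114a1 (0.877) and Anxa5 (0.87). Those for Mest were Hipk2 (0.839), Copg2 and Slit1 (both 0.822), and those for Cdkn1c were Ppp1r3b (0.886), Gja1 (0.868) and Bnc2 (0.848). Lgals1 and Anxa5 encode a galectin and an annexin, Slit1 a guidance ligand and Gja1 the gap junction protein connexin 43. These are descriptions, since the libraries share depth, sex and exposure.

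The sexes differed in 1 of the 10 genes in their response to dual exposure, Sgce, where 3.5% of tested genes differed by edgeR. Dual minus control was -0.22 ± 0.10 in males and 0.43 ± 0.09 in females (SE, log2), and the male minus female difference was -0.65 ± 0.14 (adjusted p = 0.0182). The male controls (37.3 and 38.8 CPM) were above both dual males (33.8 and 31.5), and the female controls (27.2 and 30.3) below both dual females (39.7 and 37.9). The call was lost without male control library 2 (-0.62, adjusted p = 0.122), male dual library 2 (-0.57, 0.132), female dual library 1 (-0.60, 0.0574) or library 2 (-0.69, 0.0507). The TEC and sense-intronic share was 0.429% and 0.534% in the male controls and 0.511% and 0.365% in the male dual libraries, so it did not separate these groups, while it was 0.325% and 0.349% in the female controls and 0.872% and 0.86% in the female dual libraries. With that share as a covariate, which the fit cannot separate from the female dual group, the difference was -0.13 (adjusted p = 1).

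For the other 2 exposures the sex difference of Sgce did not pass. The male minus female difference was -0.55 ± 0.14 for maternal (SE; adjusted p = 0.418) and -0.43 ± 0.14 for paternal exposure (adjusted p = 0.34), by edgeR. The maternal value passed without female control library 2 (-0.63, adjusted p = 0.0251). All 3 differences share the same control libraries. Zim1 differed by -0.81 ± 0.34 for paternal exposure (adjusted p = 0.421) and passed without female control library 2 (-1.18, adjusted p = 0.0328), which leaves a lone female control at 19.6 CPM. For paternal and for maternal exposure 0% of tested genes differed between the sexes by edgeR; 2320 and 2124 genes had an unadjusted p under 0.05, 2 and 1 of them among the 10 genes, and DESeq2 called 41 and 1 genes.

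Usp29 and Zim1 varied with their neighbour Peg3 over the libraries, and Sgce did not follow Peg10. Peg3 and Usp29, a ubiquitin-specific protease gene, run in opposite directions from starts with the printed 163 bases between them. Peg3 ran from 222 to 333 CPM and Usp29 from 72.9 to 92.8, and their CPM ratio stayed between 3.04 and 4 over 16 libraries, with a median of 3.38. Peg3 and Zim1, neighbours that are expressed from opposite parental copies, had a CPM ratio of 8 to 14.4. The Pearson r over 16 libraries, with each sex's mean subtracted, was 0.79 for Peg3 and Usp29 and 0.75 for Peg3 and Zim1, with male paternal library 1 lowest for all 3 genes. The r without that library was not computed. Such values were not confined to neighbours. On other chromosomes Peg10 had an r with Peg3 of 0.754, Mest 0.69 and Dlk1 0.651, while the others ran from -0.541 (Slc38a4) to 0.33 (Sgce). Zim1 did not follow Peg3 throughout: female control libraries 1 and 2 had Peg3 at 282 and 275 CPM but Zim1 at 19.6 and 31.5. Sgce and Peg10 share a bidirectional promoter, yet their r was 0.10. The Sgce to Peg10 CPM ratio ran from 0.11 in female control library 1 to 0.212 in female dual library 1, and Peg10 lay amid the other libraries in the female dual ones (188 and 186 CPM).

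**Figure D4:**
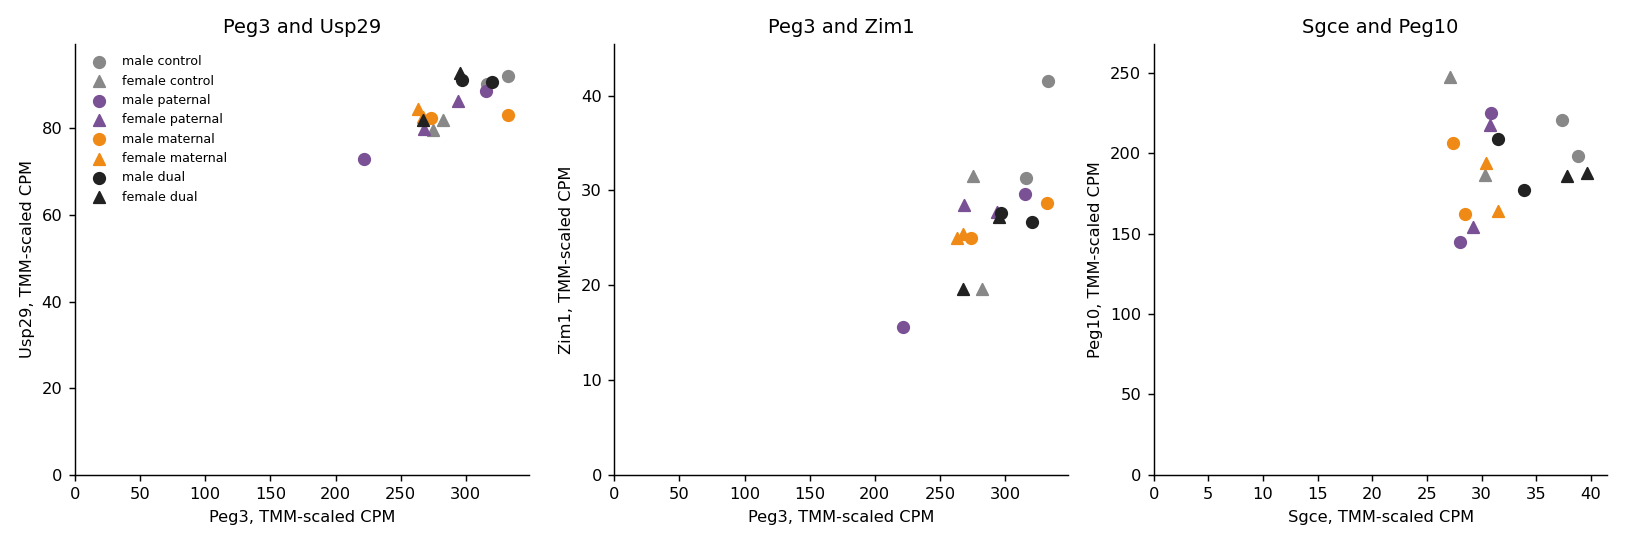
CPM (TMM-scaled) of 3 pairs of neighbouring imprinted genes in the 16 libraries, with circles for males, triangles for females and colours for exposure. Usp29 and Zim1 are lowest in the library with the lowest Peg3 (222 CPM), while Peg10 shows no such order with Sgce.

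Among the 45 pairs of the 10 genes, 9 had r over 0.5 and 5 had r under -0.5, over 16 libraries with each sex's mean subtracted. Mest and Slc38a4 were opposed (-0.741), Slc38a4 went with Cdkn1c (0.703), Plagl1 with Grb10 (0.718), and Peg10 with both Peg3 (0.754) and Dlk1 (0.745). The libraries share depth and TMM scaling, so the values are descriptions.

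Set as classes, the balance of paternally over maternally expressed genes depended on which maternally expressed genes were used. The mean log2(CPM + 0.1) of the 7 paternally expressed genes exceeded that of Cdkn1c and Zim1 by 0.61 ± 0.27 (SD, n = 4) in control, 0.64 ± 0.16 in paternal, 0.62 ± 0.06 in maternal and 0.66 ± 0.17 in dual libraries. Single libraries ran from 0.36 in male control library 1 to 0.99 in female control library 1, so that the control group alone spanned the range of all 16. The difference from control was 0.024 for paternal, 0.0054 for maternal and 0.050 for dual exposure, each under the SD of its groups. With Cdkn1c alone, the balance was 0.30 ± 0.16 in control, 0.05 ± 0.26 in paternal, 0.09 ± 0.13 in maternal and 0.20 ± 0.11 in dual libraries, and the difference from control became -0.25, -0.21 and -0.096. The maternal difference was then larger than the SD of both its groups, and the paternal one larger than the control SD but under the paternal SD, while the libraries of each exposure overlapped with the controls. Against control Cdkn1c had fitted log2 values of 0.26, 0.23 and 0.036 and Zim1 of -0.27, -0.23 and -0.28 in paternal, maternal and dual exposure. Putting Grb10 with the maternally expressed genes gave -0.15 in control, -0.18 in paternal, -0.19 in maternal and -0.10 in dual libraries. With Grb10 among the paternally expressed genes, against Cdkn1c and Zim1, the values were 0.825, 0.864, 0.847 and 0.868 in the same order.

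**Figure D5:**
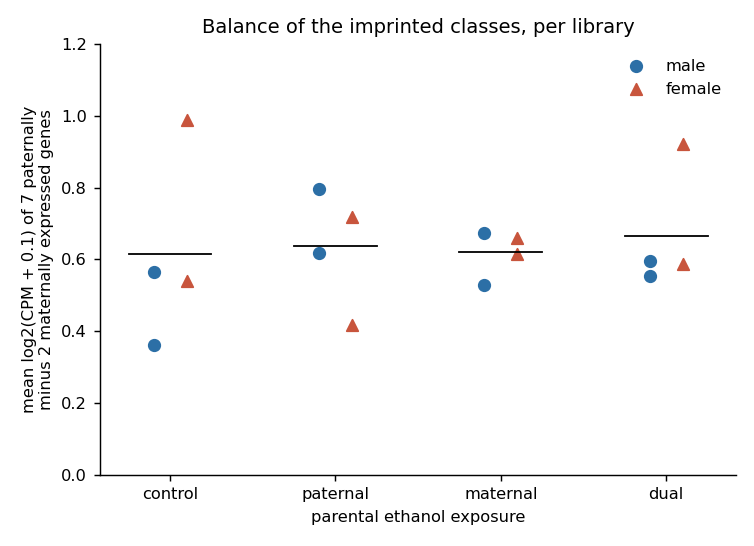
Mean log2(CPM + 0.1) of the 7 paternally expressed minus that of the 2 maternally expressed genes in each library, by exposure, with circles for males, triangles for females and a bar at the mean of 4 libraries. The control libraries alone run from 0.36 to 0.99, the range of all 16.

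For the 7 paternally expressed genes the median log2 fold change was -0.15 in paternal, -0.085 in maternal and -0.029 in dual against control, with 5 of the 7 negative in each, and over all tested genes it was -0.0093, -0.0033 and 0.0005. Cdkn1c and Zim1 had medians of -0.0031, -0.0013 and -0.12, with 1 of the 2 negative in each. Of 20 other paternally expressed protein-coding genes 18 were tested, none was called against control in any exposure, and the medians were -0.067, -0.058 and -0.043 with 13, 14 and 12 genes negative; an unadjusted p under 0.05 was seen for 2, 1 and 1 genes. Of 19 other maternally expressed genes 15 were tested, with none called, medians of -0.023, 0.035 and -0.081, with 9, 7 and 10 genes negative, and 1, 1 and 4 genes with an unadjusted p under 0.05. Over all tested genes 8.45%, 3.79% and 19.7% had an unadjusted p under 0.05 by edgeR. The fetal growth factor gene Igf2 had log2 fold changes of 0.64 ± 0.23 in paternal (SE; adjusted p = 0.512, edgeR) and 0.68 ± 0.23 in maternal exposure (adjusted p = 0.998).

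Partners and relatives of Slc38a4, Cdkn1c and Sgce were also read. Of the 9 other SLC38 transporters, all tested, none was called against control by edgeR, with an unadjusted p under 0.05 for 2 in paternal, 0 in maternal and 2 in dual exposure. Over all tested genes these shares were 8.45%, 3.79% and 19.7%. In dual against paternal and in dual against maternal exposure 1 of the 9 was called, where 8.81% and 5.76% of all tested genes were. It was Slc38a9, a lysosomal amino acid sensor, higher than in paternal (0.32 ± 0.09, SE on the log2 scale, adjusted p = 0.0257) and maternal libraries (0.33 ± 0.08, adjusted p = 0.0297). Of 13 CDK inhibitor and G1 kinase genes tested beside Cdkn1c, none was called in any comparison by edgeR, with 0 to 5 genes at an unadjusted p under 0.05. Over all tested genes 3.79% to 24.6% had such a p, by comparison. Cdkn1b, the related inhibitor p27Kip1, had 0.27 ± 0.08 in paternal against control (adjusted p = 0.405). Of 11 sarcoglycan and dystroglycan genes tested, 1 was called in dual against paternal exposure, near the 8.81% of all tested genes, and none in the other comparisons. It was Sgcd, a sarcoglycan subunit (0.53 ± 0.14, adjusted p = 0.0257).

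Of 12 adaptor and insulin receptor signalling genes set beside Grb10, 1 was called in each of 4 comparisons (dual against paternal, dual against maternal, non-additivity and the sex difference for dual exposure), where 8.81%, 5.76%, 4.21% and 3.5% of all tested genes were. Shc1, an adaptor of receptor tyrosine kinases, fell in dual against paternal (-0.59 ± 0.10, SE on the log2 scale, adjusted p = 0.00182) and against maternal exposure (-0.46 ± 0.10, adjusted p = 0.0151), and departed from additivity (-0.83 ± 0.15, adjusted p = 0.005). Grb2, the adaptor that joins receptors to Ras, differed between the sexes in its response to dual exposure (0.34 ± 0.09, male minus female, adjusted p = 0.0439). Of the 18 other paternally expressed genes tested, 1 was called in dual against paternal exposure and 1 for the sex difference under dual exposure. Of the 15 other maternally expressed genes tested, 2 were called in dual against paternal, 2 in dual against maternal and 1 for non-additivity. Rtl1, a retrotransposon-derived gene of the Dlk1 domain, rose in dual against paternal (0.53 ± 0.15, adjusted p = 0.035), and its sex difference for dual exposure was -1.10 ± 0.30 (adjusted p = 0.0495). Dlk1 itself had -0.13 ± 0.17 in dual against paternal (adjusted p = 0.683). Copg2 rose with dual against paternal (0.25 ± 0.05, adjusted p = 0.00799). Cdh15, a cadherin gene with a mean of 0.968 CPM, fell in dual against paternal (-1.32 ± 0.39, adjusted p = 0.043) and maternal exposure (-1.41 ± 0.38, adjusted p = 0.0376), and Tssc4 fell in dual against maternal (-0.28 ± 0.08, adjusted p = 0.049).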

How the data were processed

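The authors deposited 1 table of raw gene counts per library. Per the labels, RNA was extracted with the Qiagen AllPrep kit and sequenced from Illumina TruSeq Standard Total RNA libraries. The submitters' processing notes name Trimmomatic, STAR, featureCounts and GRCm39 (mm39). No source used here gives versions, annotation release or strand setting, so reads of overlapping genes on opposite strands may be mixed. Symbols were matched for 52083 of 55359 gene IDs through GENCODE M21 (GRCm38), which also gave exon lengths and overlaps.

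Samples were grouped by sex and exposure from the labels. The counts were fitted in R 4.3.3 with edgeR 4.0.16 (filterByExpr at 10 counts and a total of 15, TMM, glmQLFit, glmQLFTest) over 8 group means with 8 residual degrees of freedom, and adjusted by Benjamini-Hochberg over 21543 genes at 0.05. Comparisons average both sexes with equal weight. The SE is the log2 fold change divided by the square root of F. CPM use TMM-scaled library sizes. All library pairs differed by more than counting noise. The 10 genes and the lists were chosen with earlier results of these data known. The text names all 10 genes, and of the other lists those that passed or else up to 3 of smallest p, and for Slc38a4, Mest and Cdkn1c the 3 genes most alike (mean log2 CPM of at least 1). Alternatives were DESeq2 1.42.0, its size factors, no filter, a replicate block and each library left out, and, chosen after seeing the data, the TEC and sense-intronic share as covariate, protein-coding genes alone and males alone. A listed cortical neuron marker was left out of its list and is not reported here.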

Additional observations from a re-analysis of the deposited data

Results flagged for a closer look

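Single libraries stood far from the other 3 of their exposure in 5 of 40 sets of 4 libraries. For independent sets chance gives about 1 in 20. These sets are not independent, because the genes were read in the same libraries, and each set mixes the sexes. The count is therefore a description. Male maternal library 1 was high for Peg3 (332 CPM, others 263 to 274), Cdkn1c (69.5 CPM, others 48.4 to 51.9) and Zim1 (28.7 CPM, others 24.9 to 25.4). Male paternal library 1 was low for Zim1 (15.6 CPM, others 27.8 to 29.6), and female dual library 1 was low for Zim1 (19.6 CPM, others 26.6 to 27.6).

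Sgce differed between the sexes in its values against control. For dual exposure the male minus female difference was -0.653 on the log2 scale by edgeR's interaction test (adjusted p = 0.0182). Both dual male libraries lay below both male controls, and both dual female libraries above both female controls. Maternal libraries also lay below the controls in males and above them in females. The share of all tested genes that separated in this way, with 2 libraries on each side, was not counted. In females the margin was very small, 30.38 CPM in maternal library 1 against 30.28 in control library 2. The male minus female difference for maternal exposure was -0.553 and did not pass (adjusted p = 0.418, edgeR).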

How the results depend on the processing

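DESeq2's size factors and the replicate block changed none of the 51 gene results. The labels do not say what the replicate numbers stand for. Correlations of the differences between replicates ran from -0.14 to 0.18 over 28 group pairs, and whether same-numbered libraries shared a batch or litter was not tested further. With the block, 727 genes were called for dual against control, 1850 against paternal, 1227 against maternal, 933 for non-additivity and 775 for the sex difference, against 724, 1898, 1241, 907 and 753 without it. Counts of called genes in order of paternal, maternal and dual against control, dual against maternal, non-additivity and the sex differences of paternal, maternal and dual exposure were 321, 79, 1345, 1931, 1808, 334, 278 and 1542 with no filter on low counts, under which 11 gene results passed that had not. The unfiltered fit lets genes near 0 counts into the estimate of spread, so its higher counts are not firmer support. DESeq2 called 20 genes for paternal and 2 for maternal exposure and 41 and 1 for their sex differences.

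The 3 alternatives that follow were chosen after seeing the data. With the TEC and sense-intronic share as covariate the 5 counts with dual exposure were 0 by edgeR (697 to 911 genes at an unadjusted p under 0.05). That fit cannot separate the share from the female dual group, because its slope comes from small differences within groups. Signs then turned for Slc38a4 (0.45), Sgce (-0.12) and Grb10 (0.25) in dual against control, Sgce (-0.028), Cdkn1c (0.25) and Grb10 (0.25) in dual against paternal, Mest (-0.032), Cdkn1c (0.22) and Grb10 (0.17) in dual against maternal, Cdkn1c (0.073) and Grb10 (0.17) in non-additivity, and the sex difference of Zim1 (0.47). With protein-coding genes alone the counts were 0 for dual against control, 208 against paternal, 42 against maternal, 5 for non-additivity and 42 for the sex difference, and Slc38a4 (0.022) and Peg3 (0.012) turned in dual against control. In males alone the 4 counts were 0 by edgeR (886 to 2549 at an unadjusted p under 0.05), and Plagl1 (-0.015), Sgce (-0.22), Cdkn1c (-0.16) and Grb10 (0.0071) turned in dual against control, as did Mest (-0.056) against maternal. With Cdkn1c alone as maternally expressed the paternal minus control balance was -0.25. The cause was not tested.

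Leaving out each library in turn gave 0 to 672 called genes for paternal, 0 to 115 for maternal and 142 to 2056 for dual exposure, 764 to 2874 for dual against paternal, 389 to 2100 against maternal, 368 to 2169 for non-additivity, and 0 to 1052, 0 to 612 and 18 to 2854 for the sex differences. The genes whose sign turned ranged, for dual against control, from -0.054 to 0.10 (Cdkn1c), -0.29 to 0.077 (Grb10), -0.072 to 0.0015 (Peg3), -0.16 to 0.35 (Plagl1) and -0.19 to 0.21 (Slc38a4), for maternal from -0.29 to 0.087 (Dlk1), -0.024 to 0.34 (Grb10) and -0.0069 to 0.49 (Plagl1), for paternal from -0.050 to 0.32 (Grb10), and for the sex difference of Zim1 under dual exposure from -0.67 to 0.0069. With 2 libraries a group, single libraries decide several calls.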
